A study of Mus musculus with 24 samples.

Results

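The 9 genes described here are known targets of the transcriptional coactivator YAP or genes of tissue repair: Ccn1, Ccn2, Ankrd1, Tnfrsf12a, Thbs1, Amotl2, Sox9, Spp1 and Lamb3. They were taken by symbol from counts of 50657 genes in 24 mouse liver libraries, and the symbol of each was found in every library. The question asked of them was how far their levels after an acetaminophen overdose depend on the epidermal growth factor receptor gene, Egfr, of the hepatocyte. Of the 9, 8 had enough reads to be among the 13204 genes tested, and Ankrd1 did not, with 11 counts in all and none in 16 of 24 libraries.

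Bulk RNA was sequenced from livers of wild-type mice (WT) and of mice with Egfr deleted in hepatocytes (KO), killed at 0, 1, 3 or 12 h of an experiment with acetaminophen at 500 mg/kg. Each of the 8 groups holds 3 mice, and each library is 1 mouse. The strain, sex and age, the Cre driver of the deletion, the alleles carried by the WT mice and what the 0 h mice were given are not stated in the sources used here. The treated times have no untreated mice beside them, so drug, handling and time of day cannot be told apart in a change from 0 h. Other liver cells of the KO keep Egfr, and in whole liver fewer cells of a type and less RNA per cell cannot be told apart.

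In the Hippo pathway, a kinase cascade holds YAP and its relative TAZ in the cytoplasm of quiet epithelium. When cells are stretched, injured or lose contact, YAP enters the nucleus, binds TEAD transcription factors and raises genes for matrix proteins, growth regulators and feedback inhibitors of the pathway. In adult liver YAP activity is normally higher in bile duct cells than in hepatocytes, and injured hepatocytes can take on Sox9, a bile duct and progenitor transcription factor.

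The TEAD core, written CATTCC or GGAATG depending on the strand, was searched in promoter windows because a TEAD match is the sequence feature that YAP targets are known for. RefSeq promoter windows of 300 bases, 250 before and 50 after a transcript start, were at hand for 6 of the 9 genes (build GRCm38.p6, an older build than that of the counts). The core was in windows of 4 of these 6 genes, Ccn1, Amotl2, Ankrd1 and Lamb3, that is in 4 of their 8 windows, and in 14.7% of 32851 windows of all genes. Tnfrsf12a and Spp1 had no match. The AP-1 site TGANTCA, searched on both strands, was in windows of 0 of the 6 (7.81% of all windows), and the CArG box, the site of serum response factor, also in 0 of the 6 (1.63% of all windows). No core therefore overlapped either of the other motifs. A match is no evidence of binding, and a missing match says only that the letters are not in that window. The 30 bases around each match are given 5′ to 3′ on the gene's strand, with the core in capitals.
Ccn1, chr3:145650071-145650100, minus strand: cgcgccaaccaaCATTCCtgagatgtttga
Amotl2, chr9:102717727-102717756, plus strand: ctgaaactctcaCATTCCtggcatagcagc
Ankrd1, chr19:36120037-36120066, minus strand: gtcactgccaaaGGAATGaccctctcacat
Ankrd1, chr19:36119950-36119979, minus strand: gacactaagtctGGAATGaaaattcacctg
Lamb3, chr1:193302064-193302093, plus strand: gaggggaccccaCATTCCcagggagctctc
Counted in bases from the transcript start, the match begins at -103 in Ccn1, at -65 in Amotl2 and at -210 and -123 in Ankrd1. In Lamb3 it begins at -167 from the second of 2 starts, and lies downstream of the first start. Only the Ccn1 match lies before the first base of its window annotated by GENCODE as untranslated region of a transcript. In Amotl2 that base comes ahead of the match, and in Ankrd1 and the second Lamb3 window it opens the window. For Ccn1, the gene of this set with a match and a large rise, the whole stretch upstream of the transcript is given, with the same core in capitals.
Ccn1, chr3:145649986-145650235, minus strand: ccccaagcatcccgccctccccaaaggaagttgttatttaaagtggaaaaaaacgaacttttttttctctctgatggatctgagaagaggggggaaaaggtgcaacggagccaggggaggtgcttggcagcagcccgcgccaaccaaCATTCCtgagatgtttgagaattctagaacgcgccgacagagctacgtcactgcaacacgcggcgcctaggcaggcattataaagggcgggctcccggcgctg
Among the 12 h results given below, Tnfrsf12a rose with no core in its window, and Amotl2 was not called with a core in it.

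Levels are given in CPM, gene counts over a common library total, with totals scaled between libraries by the trimmed mean of M values (TMM). They compare samples for a gene, not genes with each other, since they are not per length. The libraries held 3.54 to 7.58 M gene counts each, with a median of 5.93 M, and 39.6% to 50.4% of them were mitochondrial ribosomal RNA, so that 1 count equals 0.124 to 0.349 CPM. The 6 libraries at 12 h held 44.8% to 50.4% of this RNA and 3.54 to 4.74 M gene counts, and the other 18 held 39.6% to 43.2% and 4.43 to 7.58 M. Time and these values therefore move together, and their part in the 12 h changes was not tested. The 12 h rises of Ccn1, Tnfrsf12a, Thbs1 and Sox9 were also called with the mitochondrial ribosomal RNA genes and AY036118 left out of the counts. That fit cannot decide the question, since it leaves the depth of the libraries and the state of the RNA as they were. The log2 rise of Ccn1 in WT was 4.09 with these genes and 4.09 without them. Egfr, the check of the labels, lay at 203 to 633 CPM in WT and at 43.0 to 335 CPM in KO. At 12 h it was at 263, 205 and 203 CPM in WT and at 65.9, 117 and 43.0 CPM in KO, without overlap, and its log2 difference of -1.55 had an adjusted p of 0.243 in edgeR. At 1 h the library labelled KO replicate 1 held 335 CPM, above the lowest WT 1 h library at 332 CPM, so a direction drawn from that library rests on its label. WT 3 h replicates 2 and 3 stood apart from the other 3 h libraries. Without both, 1 of the 8 genes was called at 3 h in WT (Amotl2, lower), 4 from 3 h to 12 h in WT and 0 between KO and WT at 3 h. A gene is called changed when its Benjamini-Hochberg adjusted p in edgeR's two-sided quasi-likelihood test, over all 13204 genes, is under 0.05.

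At 12 h the liver of both genotypes had raised the same 4 of the 8 tested genes, Ccn1, Tnfrsf12a, Thbs1 and Sox9, and lowered Ccn2. Amotl2, Spp1 and Lamb3 were not called against 0 h in either genotype. None of the 8 was called between KO and WT at 12 h, and none in the test of the difference of the 12 h responses. Of all genes tested, 13.4% were called higher and 12.2% lower at 12 h in WT, and 15.1% and 13.7% in KO. Between the genotypes at 12 h 0.053% of all genes were called, and 0.0227% for the difference of responses, so the count of 0 of 8 is near the background. At an unadjusted p under 0.05, 1 of the 8 passed in each of these comparisons, Sox9 in both. DESeq2 gave no adjusted p to any of the 8 for KO against WT at 12 h, and called 0 of the 2 to which it gave one for the difference. The median log2 change of the 8 at 12 h was 1.71 in WT and 1.56 in KO, beside -0.01 and -0.003 over all genes. Counted without a test, the 12 h mice lay wholly above the 0 h mice for the same 4 genes in WT and for these and Lamb3 in KO, and wholly below for Ccn2 in both. Of all genes tested, 19.8% lay wholly above and 20.1% wholly below in WT, and 20.5% and 20.6% in KO. Both 12 h changes are against the genotype's own 0 h mice, while the difference of responses uses all 4 groups.

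**Figure D1:**
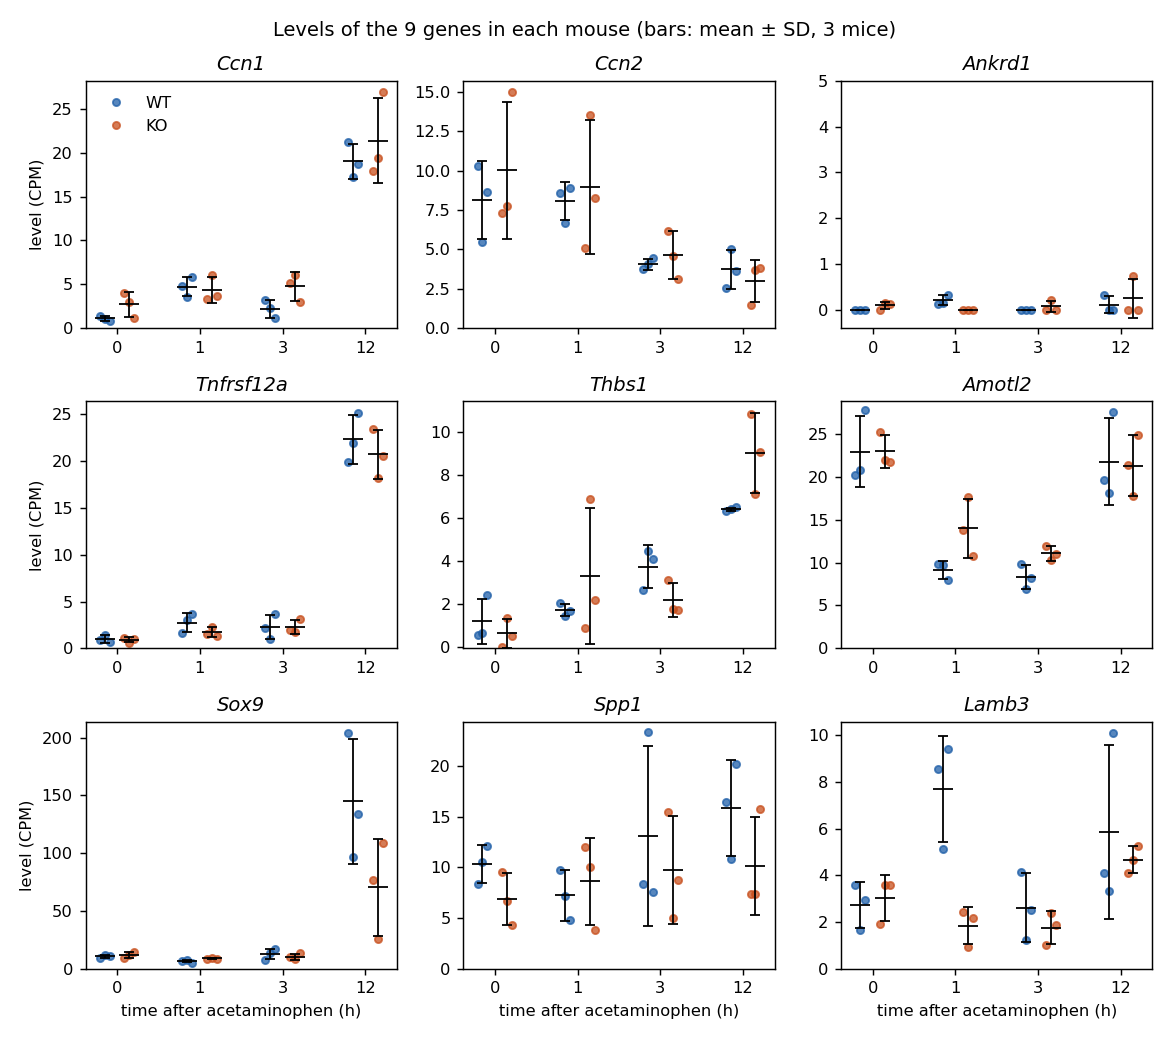
Level in CPM (vertical axis, linear, a separate scale for each gene) of the 9 genes in every mouse at 0, 1, 3 and 12 h (evenly spaced, not to scale), with points for mice, and bars for the mean and SD of 3 mice per genotype. Ccn1, Tnfrsf12a, Thbs1 and Sox9 are highest at 12 h in both genotypes, Ccn2 is lowest there, Amotl2 dips at 1 and 3 h and is back at 12 h, and Ankrd1 stays under 1 CPM.

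Ccn1 encodes a secreted matricellular protein that binds integrins and is a classical YAP target. Its level was 1.42, 1.05 and 0.799 CPM in the 3 WT mice at 0 h and 21.2, 17.2 and 18.7 CPM at 12 h. In KO it was 3.96, 2.98 and 1.12 CPM at 0 h, against 17.9, 19.4 and 26.9 CPM at 12 h. Every 12 h mouse lay above every 0 h mouse of its genotype, while the 2 genotypes overlapped at both times. Ccn1 rose by 4.09 on the log2 scale (SE 0.371, edgeR adjusted p = 2.12e-09) in WT and by 3.02 (SE 0.316, adjusted p = 3.08e-08) in KO. At 12 h KO and WT differed by 0.16 in log2 (95% interval -0.39 to 0.70, edgeR adjusted p = 0.890), which leaves room for a KO level of 0.765 to 1.63 times that of WT. The log2 response of Ccn1 was 1.07 smaller in KO (difference -1.07, interval -2.17 to 0.03, edgeR adjusted p = 0.508), and the KO level at 0 h was 1.23 higher in log2 (edgeR adjusted p = 0.461). In CPM, the KO increase was 104% of the WT increase (SE 17.6). The order of the group means from low to high was WT 0 h at 1.09, WT 3 h at 2.17, KO 0 h at 2.69, KO 1 h at 4.36, WT 1 h at 4.72, KO 3 h at 4.74, WT 12 h at 19.0 and KO 12 h at 21.4 CPM. Neighbours in this order overlapped except KO 3 h and WT 12 h.

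Ccn1 had already risen at 1 h in WT, to 4.82, 3.57 and 5.78 CPM, and lay at 3.17, 2.23 and 1.10 CPM at 3 h. The 1 h change was 2.08 (SE 0.422, edgeR adjusted p = 0.00181), and the 3 h change of 0.99 was not called (adjusted p = 0.193). KO mice held 3.31, 6.08 and 3.70 CPM at 1 h, against 5.15, 6.10 and 2.96 CPM at 3 h, with changes of 0.76 and 0.83 that were not called (edgeR adjusted p = 0.214 and 0.162). From 3 h to 12 h Ccn1 rose in both genotypes, by 3.10 in WT and 2.19 in KO (edgeR adjusted p = 1.45e-07 and 7.25e-06). The WT values were thus higher at 1 h than at 3 h and highest at 12 h, while in KO the 0, 1 and 3 h mice overlapped. The step from 1 h to 3 h was not tested. Of the WT 3 h values, 2.23 and 1.10 CPM are from replicates 2 and 3, the libraries that stood apart. Replicate 1, at 3.17 CPM, lay near the lowest WT 1 h mouse, at 3.57 CPM.

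Ccn2, the close relative of Ccn1 and the second classical YAP target, moved the other way. It stood at 10.3, 5.47 and 8.66 CPM in WT at 0 h and at 2.53, 5.00 and 3.63 CPM at 12 h. KO mice had 7.28, 7.76 and 15.0 CPM at 0 h, against 1.47, 3.68 and 3.84 CPM at 12 h. All 12 h mice lay below all 0 h mice of their genotype, although WT 12 h replicate 2 came close to WT 0 h replicate 2. Ccn2 fell by 1.15 on the log2 scale in WT (SE 0.408, edgeR adjusted p = 0.0415) and by 1.76 in KO (SE 0.419, adjusted p = 0.00269). The WT call was lost without WT 0 h replicate 1 or 3 or WT 12 h replicate 1 or 3 (edgeR adjusted p = 0.0826 to 0.159), in DESeq2 (adjusted p = 0.0524) and with counts of reads on the gene's own strand (gene-strand counts, edgeR adjusted p = 0.0533). KO and WT differed by -0.33 at 12 h (interval -1.43 to 0.77, edgeR adjusted p = 0.888). At 3 h Ccn2 was at 3.72, 4.06 and 4.42 CPM in WT and at 6.18, 4.58 and 3.11 CPM in KO. Its change from 0 h was -1.04 in WT (edgeR adjusted p = 0.0556, not called) and -1.13 in KO (adjusted p = 0.0378). The KO call was lost with the gene-strand counts (edgeR adjusted p = 0.0659), with only the groups compared (0.0695), in DESeq2 (0.0701), and without KO 0 h replicate 3 or KO 3 h replicate 2 or 3 (0.108 to 0.272). Fitted on only the groups compared, Ccn2 was called lower at 3 h in WT (edgeR adjusted p = 0.0196). So 2 genes of 1 family, both read as YAP targets, went in opposite directions in each genotype.

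Thbs1 encodes thrombospondin, a secreted matricellular glycoprotein that can activate latent TGF-beta. It rested on few reads, 0 to 51 counts per library. WT mice had 0.516, 0.631 and 2.40 CPM at 0 h, against 6.33, 6.39 and 6.48 CPM at 12 h. KO mice had 0, 1.34 and 0.497 CPM at 0 h, against 10.8, 7.12 and 9.08 CPM at 12 h. The lowest KO 12 h mouse, at 7.12 CPM, lay above the highest WT 12 h mouse, at 6.48 CPM, and Thbs1 was the only one of the 8 whose genotypes did not overlap at 12 h. Of all genes tested, 7.13% did so with KO higher. The 3 WT values at 12 h rest on 20, 23 and 25 counts. Thbs1 rose by 2.35 in WT (SE 0.617, edgeR adjusted p = 0.00757) and by 3.81 in KO (SE 0.656, adjusted p = 0.000160). KO minus WT at 12 h was 0.48 (interval -0.57 to 1.53, edgeR adjusted p = 0.805), and the difference of responses was 1.46 (interval -0.59 to 3.51, adjusted p = 0.656). In CPM the KO increase was 161% of that of WT (SE 28.9).

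Thbs1 was also called higher in KO at 1 h, by 2.43 (SE 0.698, edgeR adjusted p = 0.0357), on values of 0.871, 6.89 and 2.17 CPM. That call turned on KO 1 h replicate 2, without which the log2 change was 1.35 (edgeR adjusted p = 0.312), and was also lost without KO 0 h replicate 1 or 3 and with the gene-strand counts (edgeR adjusted p = 0.0534). The same library had the highest sum of 10 cholangiocyte markers in its group, 67.9 CPM against 18.1 CPM in replicate 1. Replicate 3 lay between them. The summed stellate cell markers were also highest in replicate 2, while the summed Kupffer cell markers were highest in replicate 1. The part of any of these cell types in the Thbs1 level was not tested. In WT at 1 h Thbs1 was at 2.01, 1.43 and 1.65 CPM, within the range of the 0 h mice. At 3 h it was at 2.62, 4.47 and 4.10 CPM in WT and at 3.09, 1.74 and 1.71 CPM in KO. The changes from 0 h, 1.55 and 1.82, were not called (edgeR adjusted p = 0.109 and 0.156). The WT change was called without WT 0 h replicate 3 (2.66, edgeR adjusted p = 0.0289) and with no filter (adjusted p = 0.00527). With no filter the KO change was called as well (edgeR adjusted p = 0.0125).

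Spp1 encodes osteopontin, a secreted phosphoprotein made by bile duct cells and activated macrophages. It was at 8.38, 10.5 and 12.1 CPM in WT at 0 h and at 16.4, 10.8 and 20.2 CPM at 12 h. In KO the values were 9.50, 6.71 and 4.35 CPM at 0 h, against 7.33, 7.37 and 15.7 CPM at 12 h. The 0 h and 12 h mice overlapped in each genotype, and the log2 changes of 0.62 (interval -0.46 to 1.70) in WT and 0.54 (interval -0.68 to 1.77) in KO were not called (edgeR adjusted p = 0.415 and 0.526). With only the 0 h and 12 h WT mice in the fit, Spp1 was called higher in WT (0.63, edgeR adjusted p = 0.0409). KO minus WT at 12 h was -0.69 (interval -1.88 to 0.50, edgeR adjusted p = 0.729). The highest Spp1 value, 23.4 CPM, was in WT 3 h replicate 2, against 8.40 and 7.57 CPM in replicates 1 and 3. Summed Kupffer cell markers, 8 genes, were at 59.1, 95.9 and 138 CPM in replicates 1, 2 and 3. Summed cholangiocyte markers, 10 genes, were at 17.9, 25.2 and 19.7 CPM. The part of either cell type in the Spp1 level was not tested.

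Tnfrsf12a encodes Fn14, the receptor of the cytokine TWEAK, which drives progenitor and wound responses in liver. It showed the largest rise of the 8 in WT and in KO. WT mice had 0.902, 1.47 and 0.666 CPM at 0 h, against 19.9, 22.0 and 25.2 CPM at 12 h. KO mice had 1.11, 0.597 and 0.993 CPM at 0 h, against 23.4, 18.2 and 20.6 CPM at 12 h. The 12 h mice of both genotypes covered the same range, far above all 0 h mice. Tnfrsf12a rose by 4.52 in WT (SE 0.321, edgeR adjusted p = 2.75e-12) and by 4.49 in KO (SE 0.323, adjusted p = 3.62e-12). KO minus WT at 12 h was -0.12 (interval -0.58 to 0.35, edgeR adjusted p = 0.910), that is a KO level of 0.671 to 1.27 times the WT level. The difference of responses was -0.03 (interval -1.23 to 1.16, edgeR adjusted p = 0.992). The KO increase in CPM was 93.0% of the WT increase (SE 9.83). Counting by strand gave this gene more reads, 982 counts on its own strand against 666 without regard to strand, and the rises were then 4.14 in both genotypes.

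Tnfrsf12a was called higher before 12 h as well, though only slightly. In WT it was at 1.61, 3.00 and 3.64 CPM at 1 h, a change of 1.48 (SE 0.406, edgeR adjusted p = 0.0194), and at 2.20, 1.02 and 3.63 CPM at 3 h, a change of 1.28 (adjusted p = 0.0380). In KO it was at 1.57, 2.30 and 1.28 CPM at 1 h, a change of 0.91 that was not called (edgeR adjusted p = 0.223), and at 1.91, 1.74 and 3.11 CPM at 3 h, a change of 1.33 (adjusted p = 0.0429). All 3 early calls were lost with the gene-strand counts (edgeR adjusted p = 0.0732 for WT at 1 h, 0.0600 for WT at 3 h and 0.0543 for KO at 3 h), and both 3 h calls in DESeq2 (adjusted p = 0.0555 and 0.0615). Of the 6 fits that each left out 1 library, 4 lost the WT call at 1 h, 4 the WT call at 3 h and 5 the KO call at 3 h. From 3 h to 12 h it rose by 3.24 in WT and 3.16 in KO (edgeR adjusted p = 7.73e-10 and 1.68e-09), so most of its log2 rise came after 3 h in both genotypes. Its ligand gene Tnfsf12 was not called in WT (0.42, edgeR adjusted p = 0.569) or KO (0.08, adjusted p = 0.920).

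Sox9 had the widest gap between genotypes among the 8 genes at 12 h. WT mice had 9.28, 12.0 and 10.7 CPM at 0 h, against 204, 97.0 and 134 CPM at 12 h. KO mice had 9.34, 12.1 and 14.4 CPM at 0 h, against 76.8, 25.8 and 109 CPM at 12 h. Every 12 h mouse exceeded every 0 h mouse of its genotype, and the highest KO mouse at 12 h, at 109 CPM, lay above the lowest WT mouse, at 97.0 CPM. Sox9 rose by 3.78 in WT (SE 0.420, edgeR adjusted p = 3.60e-06) and by 2.53 in KO (SE 0.414, adjusted p = 0.000201). The 12 h mean was 145 ± 54.2 CPM in WT and 70.5 ± 41.9 CPM in KO (SD, n = 3 each). KO minus WT was -1.06 (SE 0.368, interval -1.83 to -0.28), with a raw p of 0.0108 and an adjusted p of 0.322 in edgeR. The difference of responses was -1.25 (interval -2.48 to -0.02), with a raw p of 0.0475 and an adjusted p of 0.480 in edgeR. These intervals are for 1 gene and are not widened for the number of genes tested. In CPM the KO increase was 43.6% of the WT increase (SE 20.7), and 29.3% to 60.1% when each mouse was left out in turn. Leaving out each 12 h mouse in turn gave a KO minus WT value of -1.51 to -0.65 at 12 h. A KO level from 0.280 to 0.824 times that of WT is inside the interval of the 12 h difference, and the gap did not pass the test over all genes in any setting run with edgeR (adjusted p = 0.116 at the lowest).

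The Sox9 gap between KO and WT was not present earlier. At 1 h Sox9 was at 7.10, 7.56 and 5.29 CPM in WT and at 8.54, 9.73 and 8.67 CPM in KO, and at 3 h at 7.98, 13.8 and 17.0 CPM in WT and 9.86, 8.06 and 13.4 CPM in KO. The changes from 0 h at 1 and 3 h were between -0.65 and 0.28 and none was called in the main fit (lowest edgeR adjusted p = 0.525). With only the groups compared, the WT change of -0.65 at 1 h was called (edgeR adjusted p = 0.0439). Sox9 rose between 3 h and 12 h, by 3.49 in WT and 2.71 in KO (edgeR adjusted p = 1.77e-05 and 0.000337), later than the first rise of Ccn1 in WT. The KO mouse with the lowest Sox9 at 12 h, replicate 2 at 25.8 CPM, had the most Egfr left, 117 CPM. The KO mouse with the highest Sox9, replicate 3 at 109 CPM, had the least, 43.0 CPM. The library of KO replicate 2 also held 44.8% mitochondrial ribosomal RNA, against 47.2% and 50.4% in KO replicates 1 and 3. The part of this in its Sox9 level was not tested. In WT replicates 1, 2 and 3 at 12 h, Sox9 was at 204, 97.0 and 134 CPM and Egfr at 263, 205 and 203 CPM. The WT mouse with the most Sox9 thus also had the most Egfr. With 3 mice per group, a link between Egfr and Sox9 levels was not tested.

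Sox9 and Spp1 are also genes of bile duct cells, so markers of those cells were read beside them. The summed level of 10 cholangiocyte markers was 19.3 to 24.0 CPM in WT at 0 h and 18.2 to 21.8 CPM at 12 h, and in KO 13.0 to 22.3 CPM and 17.3 to 28.3 CPM. Of the 10, 4 were tested, 0 were called at 12 h in WT and 1 in KO, Bicc1, which rose by 1.25 (edgeR adjusted p = 0.00606). The keratin gene Krt7 was at 0 in every WT 12 h library, and Krt19 averaged 0.291 CPM there and 0.476 CPM in KO. The summed markers of 0 h and 12 h mice overlapped in both genotypes. Stellate cell markers, 9 genes, summed to 189 to 214 CPM at 0 h, against 219 to 276 CPM at 12 h in WT, and to 161 to 214 CPM and 205 to 249 CPM in KO. Neutrophil markers, of which none passed the filter on low counts, summed to 0.387 to 1.89 CPM at 0 h and 3.37 to 10.8 CPM at 12 h in WT, and in KO to 0.621 to 0.746 CPM and 3.93 to 4.19 CPM, wholly above 0 h in both. Hepatocyte markers, 8 genes, summed to 29704 to 33907 CPM at 0 h and 40498 to 45656 CPM at 12 h in WT. In KO the sums were 28346 to 37688 CPM and 37770 to 42550 CPM, so the 12 h mice lay wholly above in both. Sinusoidal endothelial cell markers, 7 genes, lay wholly above 0 h in KO only, at 321 to 404 CPM against 287 to 311 CPM. Kupffer cell, monocyte and mesothelial marker sums of 0 h and 12 h mice overlapped in both genotypes. The part of these cells in the 12 h levels of the 8 genes, Sox9 and Spp1 included, was not tested.

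**Figure D2:**
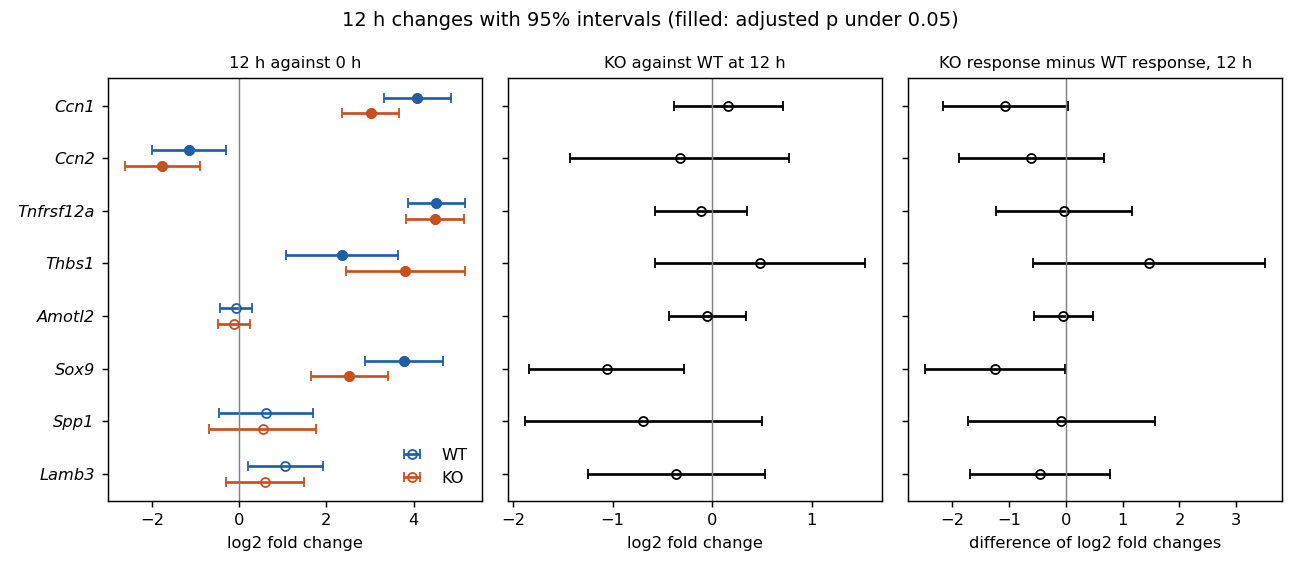
Log2 fold change with 95% interval for the 8 tested genes, at 12 h against 0 h in each genotype (left), for KO against WT at 12 h (middle), and for the KO response minus the WT response (right), with filled points for an adjusted p under 0.05. The 4 rising genes are filled in both genotypes on the left, no point is filled in the other panels, and Sox9, at -1.06 and -1.25, is the gene farthest below 0 in the middle panel.

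Lamb3, the beta chain of laminin-332 in the epithelial basement membrane, gave the only call between genotypes. At 1 h WT mice had 8.57, 5.14 and 9.42 CPM and KO mice 2.44, 0.946 and 2.17 CPM. All 3 KO mice lay below all 3 WT mice, as in 7.72% of all genes tested. Lamb3 was lower in KO by 2.06 on the log2 scale (log2 difference -2.06, SE 0.397, interval -2.88 to -1.25, edgeR adjusted p = 0.00934), where 0.492% of all genes were called and 0.356% were called lower. It was 1 of 8 called, with 2 of 8 at an unadjusted p under 0.05. At 0 h the genotypes overlapped, with 3.61, 1.68 and 2.93 CPM in WT and 1.90, 3.58 and 3.60 CPM in KO. From 0 h to 1 h Lamb3 rose by 1.42 in WT (SE 0.371, edgeR adjusted p = 0.0154), while the KO change was -0.74 (interval -1.66 to 0.17, adjusted p = 0.362). The difference of these responses was -2.17 (interval -3.36 to -0.97), with an edgeR adjusted p of 0.10, and was not called. With no filter on low counts it was -2.19 and called (edgeR adjusted p = 0.000327).

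The 1 h call of Lamb3 between genotypes was lost without KO replicate 2 (log2 difference -1.74, edgeR adjusted p = 0.108) or WT replicate 3 (-1.91, adjusted p = 0.0778), and kept without any of the other 4 mice. Without KO replicate 1, the library with the high Egfr level, it was -2.27 (edgeR adjusted p = 0.0120). The WT rise was lost without WT 0 h replicate 2 or 3 or WT 1 h replicate 1 or 3 (edgeR adjusted p = 0.0563 to 0.0711). At 3 h Lamb3 was at 4.13, 1.22 and 2.52 CPM in WT and 1.03, 2.40 and 1.87 CPM in KO, and the difference of -0.69 was not called (edgeR adjusted p = 0.691). At 12 h it was at 4.11, 3.33 and 10.1 CPM in WT and 4.10, 4.67 and 5.24 CPM in KO, with WT replicate 3 far above its group. Its 12 h changes of 1.06 in WT and 0.60 in KO were not called (edgeR adjusted p = 0.0639 and 0.321). The WT change was called with no filter (0.98, edgeR adjusted p = 0.0224) and without WT 12 h replicate 2 (adjusted p = 0.0251). KO minus WT at 12 h was -0.36 (interval -1.24 to 0.53, edgeR adjusted p = 0.832), and without WT replicate 3 it was 0.32. The 12 h difference of Lamb3 thus changed sign with 1 mouse, and its 1 h difference did not.

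**Figure D3:**
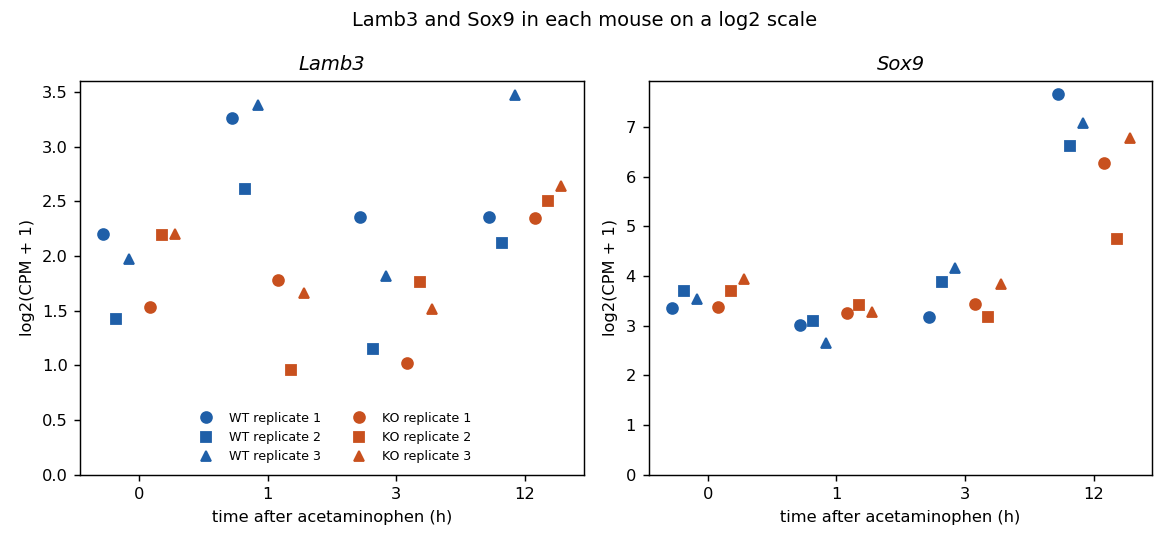
Lamb3 (left) and Sox9 (right) in every mouse as log2(CPM + 1) against time in h (evenly spaced), with colour for genotype and symbol for the replicate. The 3 KO mice lie below the 3 WT mice for Lamb3 at 1 h, and for Sox9 at 12 h the KO mice are lower on average but the groups overlap.

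Amotl2 encodes angiomotin-like 2, a scaffold that binds YAP and holds it back, and is itself a YAP target. It fell at 1 and 3 h and was back at its 0 h level at 12 h. In WT the 0 h mice had 20.2, 20.8 and 27.7 CPM, the 1 h mice 9.78, 9.70 and 7.93 CPM, the 3 h mice 9.77, 6.91 and 8.20 CPM and the 12 h mice 19.6, 18.1 and 27.5 CPM. In KO the 0 h mice had 25.2, 21.9 and 21.7 CPM, the 1 h mice 13.8, 17.6 and 10.7 CPM, the 3 h mice 11.9, 10.2 and 11.0 CPM and the 12 h mice 21.4, 17.7 and 24.8 CPM. No 1 h or 3 h mouse reached the lowest 0 h mouse of its genotype, as was true of 12.3% and 14.4% of all genes in WT at 1 and 3 h, and of 12.7% and 15.8% in KO. Amotl2 fell by 1.32 in WT (SE 0.182, edgeR adjusted p = 9.63e-06) and by 0.71 in KO (SE 0.173, adjusted p = 0.00778) at 1 h, and its log2 changes at 3 h were -1.45 and -1.04 (adjusted p = 2.32e-06 and 0.000244). The KO fall at 1 h was not called without KO 1 h replicate 3 (edgeR adjusted p = 0.0966). At 12 h the changes from 0 h were -0.08 in WT (interval -0.44 to 0.29) and -0.12 in KO (interval -0.48 to 0.25). From 3 h to 12 h it rose by 1.38 in WT and 0.92 in KO (edgeR adjusted p = 8.54e-06 and 0.00128).

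For Amotl2 the 3 KO mice lay above the 3 WT mice at 1 h and at 3 h, and for Sox9 at 1 h. Of all genes tested, 7.17% did so at 1 h and 7.63% at 3 h. KO minus WT was 0.61 at 1 h (interval 0.22 to 0.99, edgeR adjusted p = 0.169) and 0.40 at 3 h (interval -0.01 to 0.82, adjusted p = 0.489), and neither was called. With WT 3 h replicate 1 as the only WT mouse, the 3 h difference was 0.20 (edgeR adjusted p of 1), and that mouse, at 9.77 CPM, lay below the lowest KO mouse. The difference of the 1 h responses was 0.61 (interval 0.10 to 1.13, edgeR adjusted p = 0.335).

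Ankrd1, a cardiac and muscle repressor that is among the strongest YAP targets in cultured cells, was close to absent in these libraries. It held 0 counts in the WT 0 h mice together and 1 at 12 h, and 2 and 3 counts in KO. The highest value was 0.737 CPM, from 3 counts in KO 12 h replicate 2. With both groups at or under 3 counts no fold is given. Its promoter holds both of the GGAATG stretches given above.

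At 1 h 3 of the 8 genes were called higher in WT, Ccn1, Tnfrsf12a and Lamb3, and Amotl2 was called lower, where 4.09% of all genes were called higher and 4% lower. In KO at 1 h Thbs1 was called higher and Amotl2 lower, where 3.95% and 3.64% of all genes were. At 3 h in WT Tnfrsf12a was called higher and Amotl2 lower, against 7.28% and 6.85% of all genes, and without WT 3 h replicates 2 and 3 the Tnfrsf12a call was lost (log2 change 1.19, edgeR adjusted p = 0.188). In KO at 3 h Tnfrsf12a was called higher and Ccn2 and Amotl2 lower, against 5.11% and 4.84%. Between 3 h and 12 h 4 of the 8 were called higher in WT (Ccn1, Tnfrsf12a, Amotl2 and Sox9), where 7.43% of all genes were, and 5 of the 8 in KO (the same 4 and Thbs1), where 7.84% were. In KO the Thbs1 call was lost without KO 12 h replicate 1 or KO 3 h replicate 2 or 3 (edgeR adjusted p = 0.0645 to 0.0817) and the Sox9 call with only the groups compared (adjusted p = 0.0580), while Lamb3, at 1.44 (adjusted p = 0.0519), was called in a fit of the 2 groups alone (adjusted p = 0.0113) and with no filter (adjusted p = 0.00929). Between KO and WT at 0 h and 3 h edgeR called 0 of the 8, where 0.0151% and 0.977% of all genes were called, with 1 of 8 at an unadjusted p under 0.05 each time, Ccn1 in both, and DESeq2 called 0 at both times. Ccn1, Tnfrsf12a and Lamb3 were the early risers in WT and were not called at 1 h in KO, but the test of the difference of the 1 h responses, a contrast added after the values were seen, called none of the 8 in edgeR with the filter on low counts and no replicate block (3 of 8 at an unadjusted p under 0.05, with 0.454% of all genes called), and DESeq2 called 0.

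A list of 20 other genes read as YAP and TEAD targets had few calls. Of the 20, 17 were tested, and 1 was called higher and 0 lower at 12 h in WT, 3 higher and 1 lower in KO. Over all genes the shares were 13.4% higher and 12.2% lower in WT and 15.1% and 13.7% in KO, so the 3 of 17 in KO are near the background. The median log2 change of the 17 was -0.07 in WT and 0.20 in KO. Gadd45a, a stress and growth arrest gene that other pathways also induce, rose by 6.74 in WT and 6.07 in KO (edgeR adjusted p = 1.17e-08 and 3.20e-08). Asap1 and Crim1 rose in KO by 0.72 and 0.42, and the kinase gene Nuak2 fell by 1.56 (edgeR adjusted p = 0.00226, 0.0482 and 0.000410). In WT the log2 change was -0.72 for Nuak2, -1.18 for Myof and -0.33 for Amotl1, none of them called (edgeR adjusted p = 0.0609, 0.0553 and 0.152).

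Of the 17 tested components of the Hippo pathway with its YAP, TAZ and TEAD factors, 1 was called higher and 4 lower at 12 h in WT, and 4 higher and 7 lower in KO. In WT the 1 of 17 lies under the 13.4% of all genes called higher, and the 4 of 17 above the 12.2% called lower. In KO the 4 and 7 of 17 stand beside 15.1% and 13.7% of all genes, and no test compared the list with other genes. Frmd6, an upstream scaffold, rose by 1.18 in WT and 2.40 in KO (edgeR adjusted p = 0.00624 and 6.76e-07). Wwtr1, which encodes TAZ, Tead1 and the scaffold Sav1 rose in KO, by 0.67, 1.01 and 1.18. Stk4, the MST1 kinase, fell by 0.63 in WT and 0.51 in KO (edgeR adjusted p = 0.00430 and 0.0201). Amot, the relative of Amotl2, fell by 0.69 in WT and 0.99 in KO, and the scaffold Wwc1 by 0.59 and 0.71 (edgeR adjusted p = 0.0133, 0.00109, 0.0180 and 0.00430). Yap1 itself fell by 0.37 in WT and 0.35 in KO (edgeR adjusted p = 0.0386 and 0.0454). RNA levels of these genes do not show where YAP protein was in the cell.

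Receptors, ligands and chain partners of the 9 genes made a list of 21, of which 19 were tested. At 12 h 2 were called higher in WT and 4 in KO, beside 13.4% (WT) and 15.1% (KO) of all genes called higher, so both counts are near the background. In each genotype 0 were called lower, beside 12.2% (WT) and 13.7% (KO) of all genes. Lamc1, a laminin gamma chain, rose by 0.82 in WT and 0.86 in KO, and Itga6, a laminin-binding integrin, by 1.10 and 1.26 (edgeR adjusted p = 0.000121, 8.02e-05, 0.0334 and 0.0156). Sdc4 and Itgb1 rose in KO, by 0.61 and 0.31 (edgeR adjusted p = 0.00415 and 0.0202), and had changes of 0.33 and 0.16 in WT that were not called. Lama5 had changes of 0.81 and 0.53, not called (edgeR adjusted p = 0.149 and 0.355).

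Among wound proteases, inhibitors and matrix genes, 9 of 17 were tested. Of these 1, Timp3, was called higher at 12 h in both genotypes, with 0 lower. This stands beside 13.4% (WT) and 15.1% (KO) of all genes called higher, so the count called higher is near the background. Called lower were 12.2% (WT) and 13.7% (KO) of all genes. Timp3, an inhibitor of matrix metalloproteinases, rose by 1.14 in WT and 0.95 in KO (edgeR adjusted p = 2.29e-05 and 0.000184). Lox, at 1.53 and 1.46, and Tgfb1, at 0.67 and 0.21, were not called. At 3 h Fn1, which encodes fibronectin, and Plg were called lower in KO than in WT, by log2 differences of -0.91 and -0.60. In this comparison 0.977% of all genes were called in either direction. WT 3 h replicates 2 and 3 held 2008 and 1907 CPM of Fn1 against 891 CPM in replicate 1, and without these 2 libraries the differences were -0.06 and -0.18, with an adjusted p of 1 for each in edgeR.

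Genes of serum response factor, its MRTF coactivators and the actin cytoskeleton, a programme that shares several targets with YAP, held more genes called higher at 12 h than any of the other 4 lists. Of 13 tested, 8 were called higher and 0 lower in each genotype, and the median log2 change was 0.77 in WT and 0.94 in KO. Over all genes 13.4% were called higher and 12.2% lower in WT, and 15.1% and 13.7% in KO. No test compared the list with other genes. Actg1, cytoplasmic gamma-actin, rose by 3.06 in WT and 2.89 in KO (edgeR adjusted p = 3.61e-07 and 3.32e-07). Vcl, vinculin, rose by 1.26 and 1.06, Actb by 1.17 and 1.20 and Zyx, zyxin, by 0.97 and 1.28 (edgeR adjusted p of 5.85e-05 or lower). Over these 5 lists, edgeR called 0 of 75 tested genes between KO and WT at 12 h. For the difference of the 12 h responses it also called 0 of 75. Over all genes 0.053% and 0.0227% were called in these comparisons, so the counts of 0 are near the background. At an unadjusted p under 0.05, 4 and 6 of the 75 passed. For KO against WT at 12 h, DESeq2 gave an adjusted p to 0 other YAP targets, 2 Hippo, 3 partner, 2 wound and 5 serum response factor genes. For the difference these counts were 4, 9, 6, 4 and 8. It called 0 of these genes, and so speaks to only part of the lists.

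**Figure D4:**
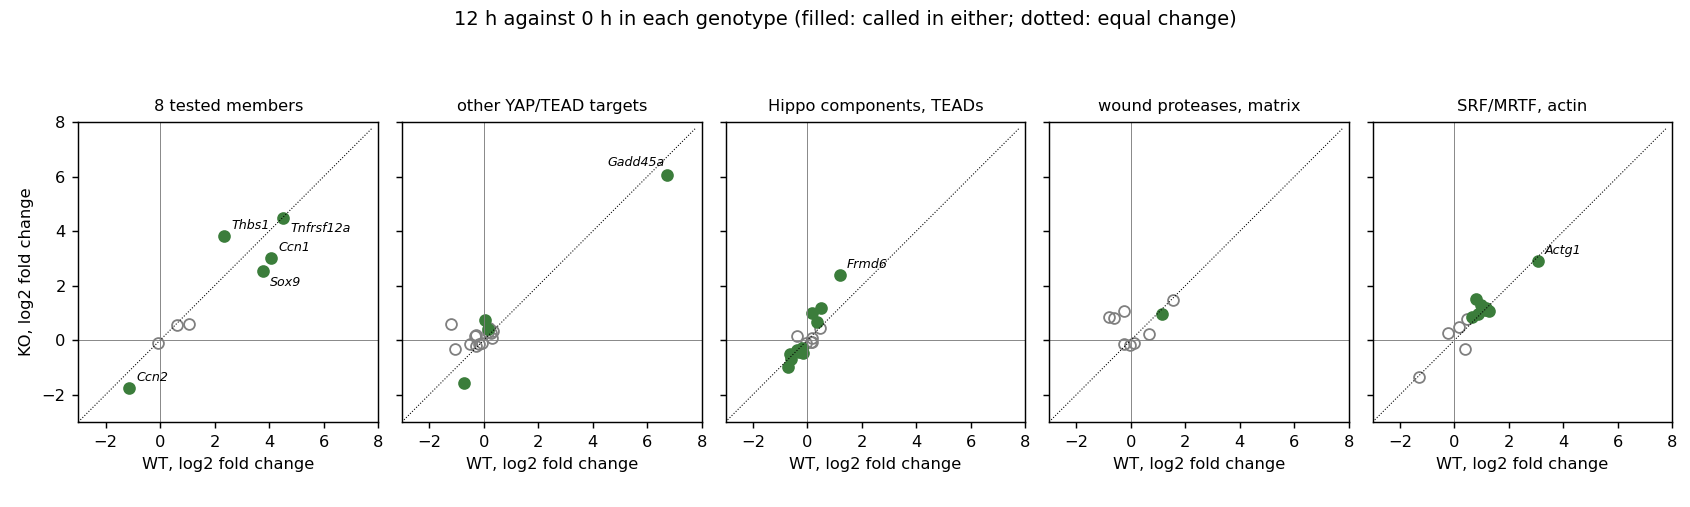
Log2 change at 12 h against 0 h in KO (vertical) and WT (horizontal) for the 8 tested genes and 4 other lists, with filled points for genes called in either genotype and a dotted line of equal change. Tnfrsf12a and Actg1 lie near the dotted line, Sox9 and Ccn1 below it, and Thbs1 and Frmd6 above it.

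For each gene the most similar profile outside these lists was found among 8168 genes as the smallest mean absolute difference of log2(CPM + 1), centred on its own mean, over the 8 group means. For Tnfrsf12a it was Junb, an AP-1 subunit (0.156 in log2), which went from 6.42 to 74.5 CPM in WT and from 6.57 to 75.5 CPM in KO between 0 and 12 h. For Ccn1 it was Dnajb1, a heat shock cochaperone (0.199), at 9.61 and 71.8 CPM in WT and 9.48 and 78.4 CPM in KO. For Sox9 it was Csrnp1, a nuclear protein (0.222), at 12.3 and 145 CPM in WT and 13.2 and 108 CPM in KO. For Amotl2 it was Irf1, an interferon regulatory factor (0.185), with 7.59, 2.49, 2.77 and 10.3 CPM at 0, 1, 3 and 12 h in WT. The nearest to Ccn2 was Zmynd8 (0.102), to Thbs1 Cfap53 (0.148), to Spp1 Plxna4 (0.0918) and to Lamb3 Acsl5 (0.222). A small distance for a gene that hardly varies, such as Spp1, carries less than the same distance for Tnfrsf12a. Each nearest gene was chosen on these same 8 group means, so a shared direction between genotypes follows from the choice.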

How the data were processed

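For each library the authors deposited raw counts per gene from STAR on build mm39, per the submitters' processing notes (versions and annotation not given in the sources used here). RNA was polyA RNA extracted with TRIzol and read on an AVITI instrument, per the labels. The counts without regard to strand were used, and 26.3% to 30.8% of reads were ambiguous between genes and left out, with the other 3 of 4 lines that name no gene. These other lines also held many reads. WT 0 h replicate 1 had 35570155 reads and 7.58 M gene counts, and KO 12 h replicate 3 had 20002751 reads and 3.54 M gene counts. Genes were filtered by filterByExpr (13204 kept), scaled by TMM and fitted with edgeR 4.0.16 in R 4.3.3, quasi-likelihood with robust dispersion, 1 mean per group, two-sided, adjusted by Benjamini-Hochberg. Changes are read against the median gene, since scaling by library size alone moves the median WT 12 h change from -0.01 to -0.37. Replicate pairs differed by 2.18 to 19.7 times counting variance, so all 24 were counted as separate samples. The steps were tested on simulated counts.

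The members and lists were chosen with earlier results of these data known. Named were all 9 members, up to 4 genes of each list by smallest p at 12 h in WT, and for each member the gene of nearest profile with at least 5 CPM. KO-only calls, Yap1 and the 3 h genes were added after their values were seen. A gene of the wound list is not reported here. Alternatives were RLE scaling, library size alone, other filters, DESeq2 1.42.0, only the groups compared, the gene-strand counts, removal of mitochondrial ribosomal RNA, a replicate block, and leaving out each library. Intervals and floors (3 counts) cover 95% confidence. Sequences are from RefSeq tables on GRCm38.p6.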

Additional observations from a re-analysis of the deposited data

How the results depend on the processing

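The 12 h rises of Ccn1, Tnfrsf12a, Thbs1 and Sox9 kept their direction and call in both genotypes under every alternative run, and none of the 8 genes was called between KO and WT at 12 h or in the difference of 12 h responses under any edgeR alternative run. DESeq2 gave no member an adjusted p for the former and 2 members one for the latter. Counts of members called moved as follows. At 1 h in KO the count was 1 with the gene-strand counts and with only the groups compared. At 3 h in KO it was 1 with DESeq2 and with the gene-strand counts. At 3 h in WT it was 1 with DESeq2, with the gene-strand counts and without WT 3 h replicates 2 and 3 (chosen after seeing the data), and 4 with no low-count filter. With no filter it was 1 for KO against WT at 3 h (Ccn1) and 1 for the difference of 1 h responses (Lamb3). Leaving out each library in turn gave 1 to 2 (KO 1 h), 1 to 2 (KO 3 h), 0 to 1 (KO against WT at 1 h), 2 to 3 (WT 1 h), 1 to 3 (WT 3 h) and 4 to 6 (WT 12 h) members called.

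The replicate numbers were not used to pair the mice in the main fit. Deviations of same-numbered WT and KO mice correlated at -0.18 to 0.12 over 12 pairs, 2 of them over 0.1, both at 12 h. Those of 0 h and 12 h mice correlated at -0.05 to 0.06 over 6 pairs. With 3 mice per group, these values cannot decide whether the numbers pair the mice. With a replicate block, Lamb3 was the 1 member called for the difference of 1 h responses (-2.21, edgeR adjusted p = 0.0406), Lamb3 was also called at 12 h in WT (1.06, adjusted p = 0.0365) and from 3 h to 12 h in KO (1.49, adjusted p = 0.0212), Ccn2 was not at 3 h in KO (adjusted p = 0.0539), and genes called were 5 for the difference of 12 h responses and 9 for KO against WT at 0 h.

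Counts over all genes moved more. For the difference of 12 h responses, with 3 in the report, they were 5 with a filter of 1 CPM in 3 libraries, 40 with DESeq2, 0 with the gene-strand counts, 1 with library size alone, 79 with no filter and 9 with only the groups compared. For the difference of 1 h responses they were 119 with DESeq2 and 217 with no filter. For KO against WT, DESeq2 gave 31, 103 and 36 at 0, 1 and 12 h, no filter gave 95, 230, 254 and 78 at 0, 1, 3 and 12 h, only the groups compared gave 13, 39, 44 and 24, and the gene-strand counts gave 1 at 0 h and 2 at 12 h. Library size alone gave 5324 at 12 h in WT, and 3085 (WT) and 2783 (KO) from 3 h to 12 h. Only the groups compared gave 1198 at 3 h in WT. Without WT 3 h replicates 2 and 3 the counts were 1027 (WT 3 h), 704 (WT 3 h to 12 h) and 28 (KO against WT at 3 h). Leaving out each library gave 15 to 83 for the difference at 1 h, 1 to 15 at 12 h, 1 to 14, 16 to 104, 9 to 335 and 0 to 34 for KO against WT at 0, 1, 3 and 12 h, 567 to 1205 and 715 to 1052 in KO at 1 and 3 h, and 684 to 800 in WT at 1 h. The causes were not tested.

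Values near 0 that were not called changed sign. With library size alone Amotl2 was 0.0372 for KO against WT at 12 h and 0.0606 for the difference of 12 h responses, Spp1 0.0223 and Tnfrsf12a 0.0639 for that difference, and Tnfrsf12a 0.00751 with the gene-strand counts. Leaving out each library gave, for the difference, -0.20 to 0.17 (Amotl2), -0.76 to 0.22 (Lamb3), -0.50 to 0.22 (Spp1) and -0.32 to 0.21 (Tnfrsf12a), for KO against WT at 12 h -0.18 to 0.16 (Amotl2), -0.0290 to 0.26 (Ccn1) and -0.65 to 0.32 (Lamb3), and for Amotl2 at 12 h -0.29 to 0.0752 in WT and -0.24 to 0.00620 in KO. Depth limits the values of Ankrd1, Thbs1 and the 0 h mice of Tnfrsf12a and Ccn1, where 1 count is worth 0.124 to 0.349 CPM.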
